A study of Homo sapiens with 74 samples.

Results

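The comparison described here is the SMARCA2 knockout of the human line HAP1 against wild-type HAP1 cells, measured by ATAC-seq. It holds 4 of the 74 samples that the labels list: replicates 1 and 2 of 1 SMARCA2 knockout clone, and wild-type replicates 1 and 2. The 4 libraries were taken by their titles, and no measured value entered that choice. HAP1, derived from a chronic myeloid leukaemia, is near-haploid, so most loci are present as a single copy and a knockout needs 1 edited allele. ATAC-seq uses a transposase that cuts and tags DNA where it is open, and the reads counted over a region measure its accessibility. The series knocked out BAF subunits singly in HAP1 clones, and in a second experiment knocked down ARID2, SMARCA4 or both, in cells that were wild type or lacked ARID2 or SMARCA4. No group compared with wild type below carries a further change, apart from the groups of the knockdown experiment, which are given with it. The labels name no drug treatment for these libraries.

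SMARCA2, also called BRM, is 1 of the 2 ATPases of the BAF (SWI/SNF) complexes, which slide or eject nucleosomes with the energy of ATP. The other is SMARCA4, also called BRG1, and a complex holds one or the other. The BAF complexes keep many enhancers open, and cells that lose one ATPase often come to rely on the other. ARID1A and ARID1B are large subunits of the canonical BAF complex, ARID2, PBRM1, PHF10 and BRD7 are subunits of the PBAF form, BRD9 marks a non-canonical form, and SMARCC1 and SMARCC2 form the core scaffold.

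The SMARCA2 knockout is 1 clone, so the loss of SMARCA2 cannot be told apart from other changes that this clone carries. Nothing in the labels says that its 2 libraries came from separate cultures. The p-values below thus measure only the spread between libraries of the same group, estimated jointly over all groups of a fit. Of 56 knockout-experiment libraries used, the 48 of set 1 stand together by title form and accession range: 23 clones including SMARCA2 and wild-type replicates 1 and 2. The 4 libraries compared held 7933613 to 12422345 counts in total, within the range of set 1, 7855389 to 12422345. Pearson's r between the replicates, across the log2 accessibility of all regions, was 0.926 for the SMARCA2 libraries and 0.921 for the wild-type libraries. Regions are not independent replicates. Accessibility is given in CPM, counts per 1e6 counts of the library's scaled total. Regions are named by their position in hg19, as deposited. No gene annotation of that build was used, so regions are not paired with genes, and the labelled line was not checked against marker genes.

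Accessibility was examined first at the SMARCA2 gene. The window of chromosome 9 from 2 to 2.2 Mb, taken from general knowledge to hold the gene in hg19, contained 16 regions, and 0 were called. The strongest of them, chr9:2014819-2015570, had 45.0 and 45.2 CPM in the SMARCA2 libraries and 52.2 and 35.1 CPM in the wild-type libraries. The log2 fold change there was 0.04, with a 95% interval from -0.29 to 0.38. The knockout clone thus lay between the 2 wild-type libraries at this region. Summed over the window, the SMARCA2 libraries had 163 and 160 CPM and the wild-type libraries 171 and 156 CPM. The largest fall in the window was at chr9:2143115-2143693, with 1.90 and 0.79 CPM against 2.81 and 3.11 CPM, a log2 fold change of -1.18 that did not pass the test (adjusted p = 0.522, edgeR's quasi-likelihood test). The accessibility of a gene does not show whether its protein is made, so these values do not check the knockout. At the SMARCA4 gene, the 8 regions of chromosome 19 from 11 to 11.2 Mb had log2 fold changes from -0.31 to 0.44, and 0 were called.

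Few regions differed between the SMARCA2 knockout and wild type. Of 145532 regions tested with edgeR's quasi-likelihood test, 341 were called, meaning an adjusted p under 0.05 over all regions, or 0.234% of those tested. Lower accessibility in the knockout was called at 233 regions (0.16%) and higher accessibility at 108 regions (0.0742%). The change was beyond 2-fold at 217 of the lower and 101 of the higher regions. The median log2 fold change of all regions was 0.00 (-0.0016). At an unadjusted p under 0.05, 5179 regions were lower and 5170 higher, so the excess of lower over higher regions stood among the called ones and not in the table as a whole. In all 341 called regions both SMARCA2 libraries lay on one side of both wild-type libraries, and 36.4% of all regions tested had such a separation.

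**Figure D1:**
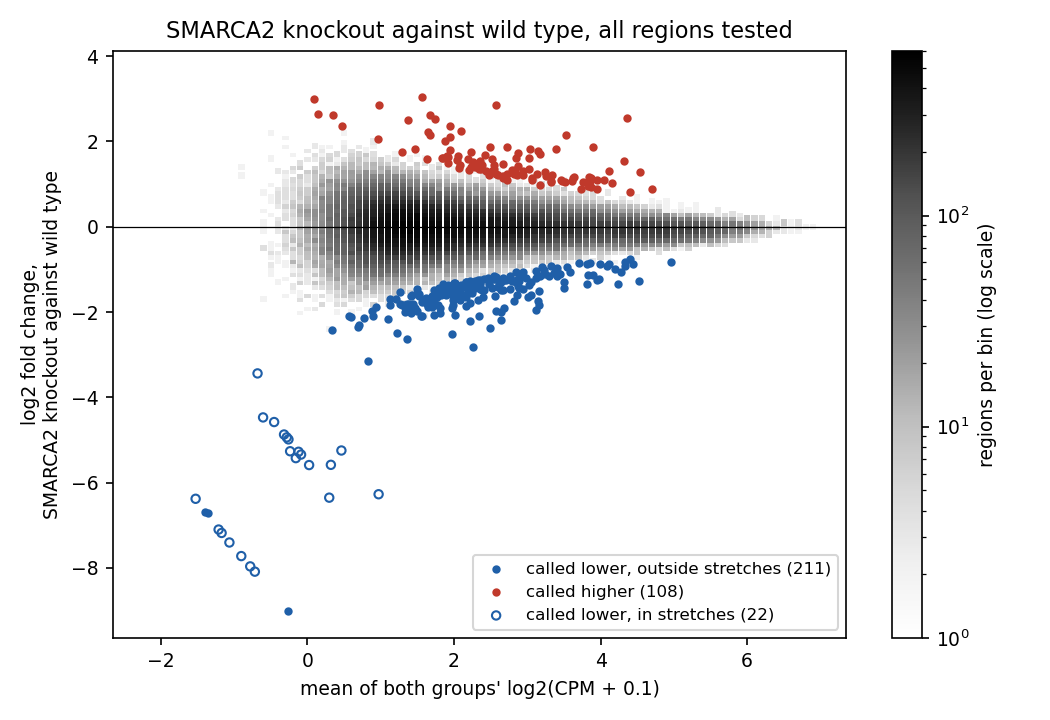
Log2 fold change of the SMARCA2 knockout against wild type (vertical axis) by the mean log2(CPM + 0.1) of both groups (horizontal axis). Grey squares count regions per bin; filled points are called regions (blue lower, red higher) and open circles the 22 called regions in 3 stretches with almost no reads in the clone, whose fitted values, like those of the 3 blue points beside them, depend on the prior count of the fit.

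The spread between the libraries set what could be seen. The 95% interval of the change lay within 2-fold either way at 69191 regions, 47.5% of those tested. Among the 72766 regions above the median accessibility it did so at 79.4%, with a median SE of 0.28 on the log2 scale. Among the less accessible regions it did so at 15.7%, with a median SE of 0.47. For most of the weakly accessible regions a change of 2-fold or more was therefore not excluded. The count of calls also rested on single libraries: 170 regions were called when SMARCA2 replicate 1 was left out, 111 when SMARCA2 replicate 2 was, 111 without the first wild-type library and 185 without the second. Lower calls outnumbered higher ones in each of these, and 47 lower and 12 higher regions were called in all 4 of them.

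Other ways of testing moved the count and the split. With the wild-type libraries of both sets pooled, 1136 regions were called, 804 lower and 332 higher. On the authors' own normalized values, tested with limma, 883 regions were called, 50.3% of them lower, against 68.3% lower in the count test. With each library centred on its median, those values gave 899 calls, 59.6% lower. With the 4 libraries fitted alone, 466 regions were called, 57.1% of them lower. The excess of lower calls was thus small or absent on the authors' scale as deposited.

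**Figure D2:**
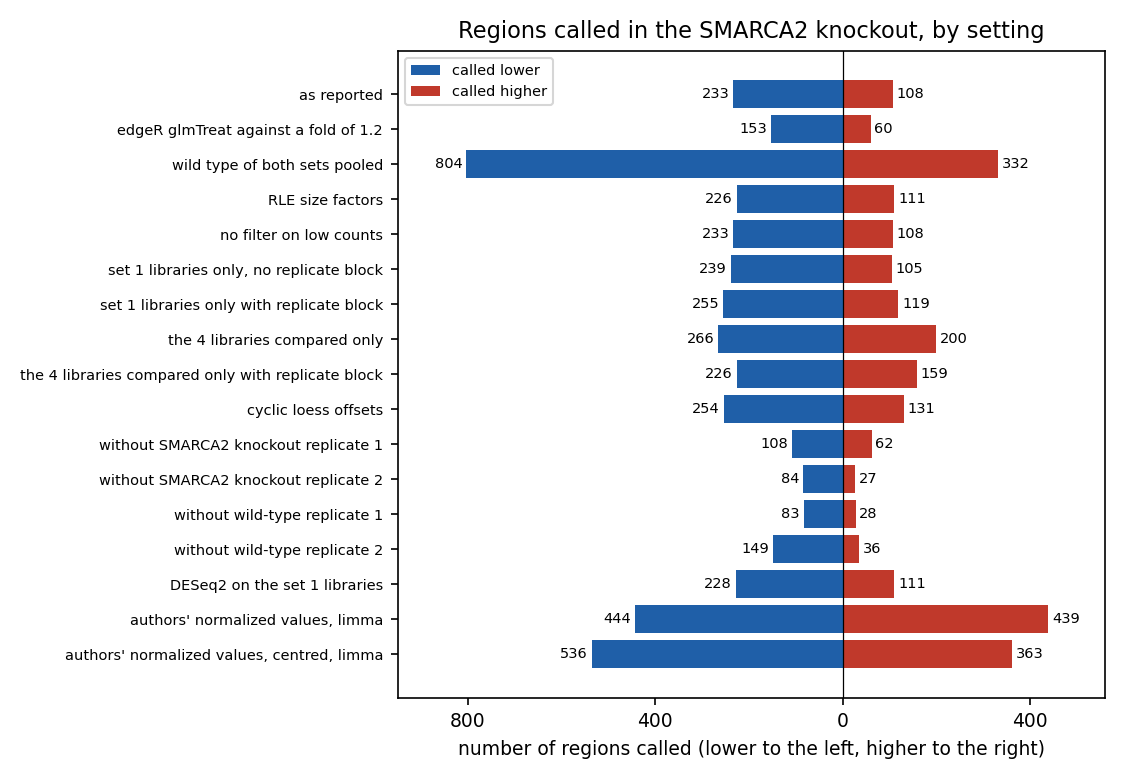
Number of regions called lower (blue, to the left) and higher (red, to the right) in the SMARCA2 knockout against wild type, under the setting reported and 16 others. Calls range from 111 without SMARCA2 replicate 2 or wild-type replicate 1 to 1136 with both wild-type sets pooled.

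The lower regions outside the stretches described further on numbered 211, with a median log2 fold change of -1.49. Their accessibility was spread unevenly: 114 of the 211 (54.0%) lay among the most accessible of 4 equal classes of regions, and 5 (2.37%) among the least accessible. They were also wide, with 109 (51.7%) in the widest of 4 such classes, 764 to 3982 bp. The higher regions had a median log2 fold change of 1.401 and ranged from 0.81 to 3.03. Of these, 46 of 108 (42.6%) lay in the most accessible class and 64 (59.3%) in the widest. The fit was more precise at the more accessible regions, as given above. What these shares owe to the ease of calling was not tested. Called regions stood on 22 autosomes and chromosome X. Outside the stretches they made up 0.0495% of the tested regions of chromosome 22 and 0.53% of those of chromosome 21, the extremes.

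The 12 lower regions named here were the most reduced among called regions of above-median accessibility outside the stretches. The most reduced, chr2:60621592-60622609, had 0 counts in both SMARCA2 libraries, and 6.02 and 7.65 CPM (62 and 64 counts) in the wild-type libraries. Taking 3 counts over both SMARCA2 libraries, or 0.135 CPM, as the most that a count of 0 allows, it was at least 50.5-fold lower in the knockout (adjusted p = 4.71e-19, edgeR). No other of the 22 clones of set 1 approached this: their means ran from 3.26 to 15.4 CPM, and the lowest was a SMARCA4 knockout clone. At chr5:58613024-58613703 the SMARCA2 libraries had 1.58 and 1.89 CPM and the wild-type libraries 12.7 and 12.2 CPM. The log2 fold change was -2.82 ± 0.30 (SE), with an adjusted p of 1.04e-12 by edgeR. The 2 SMARCA4 clones, at 2.65 and 2.68 CPM, were the next lowest here, and the other clones reached 21.0 CPM.

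Of the named lower regions, 3 lay within 0.4 Mb of each other on chromosome 15. At chr15:33760841-33761664 the knockout had 0.63 and 1.26 CPM against 6.60 and 5.74 CPM, a log2 fold change of -2.64. At chr15:33650368-33651018 it had 2.22 and 1.02 CPM against 8.15 and 9.68 CPM, a change of -2.50. At chr15:33403037-33403776 it had 1.16 and 0.71 CPM against 6.70 and 3.59 CPM, a change of -2.50 ± 0.41 (SE), and the 2 wild-type libraries differed more from each other than at the neighbouring regions. The SMARCA2 clone was below each of the other 22 clones at all 3 regions. Of those 22 clones, 18, 16 and 14 were below wild type at the 3 regions in turn. The last of them was not called without SMARCA2 replicate 2 (adjusted p = 0.0563) or without wild-type replicate 1 (adjusted p = 0.113).

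At chr8:26724199-26725182 the knockout had 3.06 and 1.81 CPM and the wild-type libraries 12.6 and 12.2 CPM. The log2 fold change was -2.38 ± 0.28 (SE), with an adjusted p of 7.33e-11 by edgeR. The other 22 clones kept close to wild type there, from 8.02 to 15.1 CPM with a median of 12.6 CPM. The 2 SMARCA4 clones were among them, with 10.1 and 10.8 CPM. At chr2:125084796-125085531, by contrast, the knockout had 1.48 and 2.68 CPM against 11.3 and 8.61 CPM, and 6 other clones had less than the SMARCA2 clone. The lowest of those was the ARID1B clone, at 0.86 CPM, and 19 of the other 22 clones were below wild type. At chr1:191561778-191562819 the knockout had 2.74 and 2.99 CPM against 14.8 and 11.4 CPM, and 2 other clones were lower.

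The remaining 4 named lower regions changed by about the same amount. At chr11:30656825-30657444 the values were 1.37 and 1.34 CPM against 5.63 and 5.98 CPM, a log2 fold change of -2.09. At chr1:57396593-57397742 they were 2.32 and 2.44 CPM against 10.4 and 9.92 CPM, a change of -2.08. The SMARCA2 clone was the lowest of the 23 clones at both. Of the other clones, 12 were below wild type at chr11:30656825 and 18 at chr1:57396593, with 10 and 4 above it. At chr1:104733150-104734040 the values were 0.84 and 2.21 CPM against 8.54 and 4.78 CPM, a change of -2.07, and at chr11:40126388-40127193 they were 2.53 and 1.34 CPM against 8.93 and 6.81 CPM, a change of -2.06. At each of these last regions 3 other clones were lower than the SMARCA2 clone, a SMARCA4 clone the lowest with 0.89 and 1.21 CPM. Below wild type were 9 other clones at chr1:104733150 and 20 at chr11:40126388, with 13 and 2 above it. At chr11:40126388 the SMARCA2 clone was not called against the other clones (adjusted p = 0.121, edgeR). Without SMARCA2 replicate 2 the adjusted p was 0.0502 at chr11:30656825 and 0.209 at chr11:40126388, and without replicate 1 it was 0.0501 at chr1:104733150. Without wild-type replicate 1 it was 0.147 at chr1:104733150 and 0.0567 at chr11:40126388.

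Some of the lower regions lay near each other. Joining called regions of 1 direction that were at most 500 kb apart gave 17 groups of 3 or more lower regions, holding 74 of the 233, and 2 groups of higher regions, holding 6 of the 108. Without the 3 groups that contain a stretch with almost no reads, 14 lower groups with 51 regions remained. The lower list is the longer one, and no group count was made for other regions or for lists of equal length. These groups were formed from called regions, so their summed levels are a description. On chromosome 15, the 6 called regions between 33092232 and 33761664 summed to 9.92 and 8.51 CPM in the SMARCA2 libraries and 45.4 and 43.5 CPM in the wild-type libraries. The other 22 clones ranged from 22.9 to 63.6 CPM there, and the log2 fold change was below 0 at 22 of the 29 regions tested in the span. On chromosome 16, the 6 called regions between 59202872 and 59668436 summed to 9.92 and 9.14 CPM against 34.6 and 30.7 CPM, and 18 of 19 regions in the span were below 0. The other clones ranged more widely at this locus, from 11.0 to 51.7 CPM. On chromosome 11, the 6 called regions between 40031008 and 40316090 summed to 19.8 and 15.8 CPM against 54.3 and 42.4 CPM. There the median of the other clones was 27.9 CPM, nearer to the SMARCA2 clone than to wild type, and 1 of the 6 regions was also called against the other clones.

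The 12 named higher regions began with chr13:23085985-23087125, with 13.9 and 17.3 CPM in the SMARCA2 libraries and 1.94 and 2.39 CPM in the wild-type libraries. The log2 fold change was 2.85 ± 0.37 (SE; adjusted p = 5.50e-09, edgeR). Among the other clones, the ARID1B clone was higher still, at 23.0 CPM, and the median was 2.72 CPM. This region was 1 of 3 called higher between 23025291 and 23087125 on chromosome 13, whose sum was 25.8 and 31.4 CPM against 3.69 and 3.94 CPM. The most accessible of the named higher regions was chr6:96463211-96464747, with 49.7 and 49.1 CPM against 9.12 and 7.65 CPM, a change of 2.55 ± 0.23 (SE; adjusted p = 5.19e-17, edgeR). The ACTB knockout clone reached 48.9 CPM at this region, while the median of the other clones was 7.04 CPM.

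Several of the other higher regions were also high in a few further clones. At chr5:19289426-19290205 the knockout had 6.86 and 8.04 CPM against 0.58 and 1.91 CPM in wild type, and 4 clones were higher than the SMARCA2 clone. Wild type was the lowest of all set 1 groups there. At chr8:48160640-48161533 the values were 8.23 and 8.83 CPM against 2.04 and 1.195 CPM, and the ARID1B clone was higher, at 13.3 CPM. Wild type was again the lowest of the set 1 groups. At chr5:140473852-140474581 they were 8.65 and 9.14 CPM against 0.87 and 2.99 CPM, a region at which the SMARCA2 clone was the highest. Wild type was below 21 of the other clones there and above 1. At chr4:190423943-190424853 they were 22.9 and 25.3 CPM against 6.21 and 4.54 CPM, a log2 fold change of 2.15. The 2 SMARCA4 clones, with 2.24 and 2.95 CPM, were among the 3 lowest at that region, and the BCL11B clone was the highest, with 26.8 CPM.

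At chrX:145604709-145605379 the knockout had 7.39 and 8.20 CPM against 2.33 and 1.195 CPM, and 5 clones were higher. At chr17:12568639-12569480 it had 12.9 and 12.2 CPM against 4.08 and 2.63 CPM. At chr2:17721436-17722201 it had 25.1 and 31.2 CPM against 7.18 and 8.25 CPM, a change of 1.87. At this last region 4 clones (PBRM1, DPF2, BRD7 and ACTB) were at 28.2 to 29.6 CPM, slightly above the SMARCA2 clone, while the median clone was at 3.94 CPM. At chr2:3652464-3653628 the values were 19.2 and 20.1 CPM against 6.02 and 5.02 CPM. At chr14:29243093-29244059 they were 13.7 and 16.6 CPM against 3.79 and 4.90 CPM, and the BRD7 clone alone was higher, at 18.6 CPM. At chr8:139153811-139154635 they were 12.9 and 19.3 CPM against 4.95 and 4.54 CPM, and 5 clones were higher. Of the 12 regions, 4 lost their call when 1 wild-type library was left out: chr5:19289426 (adjusted p = 0.0906), chr5:140473852 (0.237) and chr14:29243093 (0.0688) without replicate 1, and chrX:145604709 (0.0833) without replicate 2.

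**Figure D3:**
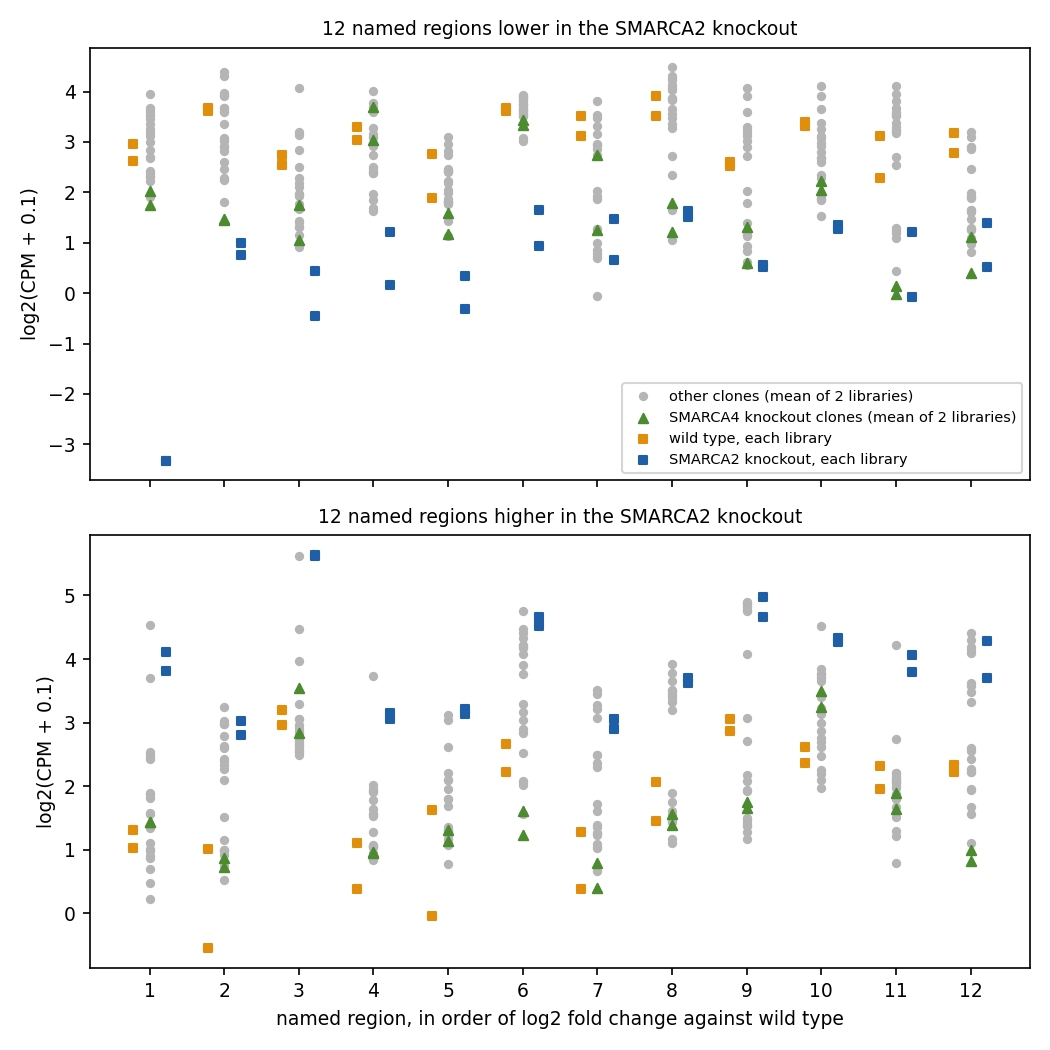
Accessibility, log2(CPM + 0.1), of the 12 named lower regions (top) and 12 named higher regions (bottom), in order of fold change. Squares are single libraries of wild type (orange) and the SMARCA2 knockout (blue), green triangles the 2 SMARCA4 knockout clones and grey points the other 20 set 1 clones, each as a mean of 2 libraries; at most higher regions 1 or more other clones reach or pass the SMARCA2 level.

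In 3 stretches of neighbouring regions the SMARCA2 libraries had almost no reads. A stretch was a run of 3 or more regions in a row, each with at least 1 CPM in wild type and under 10% of that in the SMARCA2 clone. The 3 stretches held 22 regions, and all 22 were called lower. The rule used the same 4 libraries as the calls, so this count is a description. The longest covered 16 regions over 177 kb on chromosome 2, from 14995531 to 15172455. The SMARCA2 libraries had 13 and 10 counts in it, and the wild-type libraries 584 and 437, so the clone was at 1.98% of wild type. In the other 22 clones the same 16 regions stood at 100.2% to 198% of wild type, with a median of 121%. The next region, chr2:15182507-15183948, was at 36.1 CPM in the SMARCA2 clone and 35.6 CPM in wild type, so the low level ended between neighbouring regions. The strongest wild-type region of the stretch, chr2:15043763-15044374, had 0 and 2 counts in the SMARCA2 libraries and 103 and 56 in the wild-type libraries.

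The second stretch lay on chromosome 2 from 205911874 to 205935495, with 3 regions over 23.6 kb. Its regions had 0 and 9 counts in the SMARCA2 libraries and 308 and 189 in the wild-type libraries, which is 1.35% of wild type by CPM. The strongest region there, chr2:205924813-205925535, had 0 and 4 counts against 176 and 105, and the other clones ranged from 12.0 to 21.9 CPM. At the first region of this stretch, chr2:205911874-205912636, 1 other clone, the ARID2 knockout, was also under 10% of wild type, at 0.20 CPM. Over the whole stretch that clone was at 70.3% of wild type and the clones reached 137%. The third stretch, chromosome 4 from 95469591 to 95488191, had 3 regions over 18.6 kb, with 2 and 2 counts against 117 and 84. Its strongest region, chr4:95487451-95488191, had 2 and 0 counts against 42 and 33. The other clones were at 73.1% to 190% of wild type over it.

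Beyond the stretches, 3 single regions were under 10% of wild type, each with 0 counts in both SMARCA2 libraries. One was chr2:60621592, given above. The others were on chromosome 16: chr16:78512272-78512773, with 7 and 18 counts in wild type, and chr16:78582898-78583399, with 13 and 12. At these 2 regions 4 and 12 other clones, respectively, were also under 10% of wild type, so low levels there were not confined to the SMARCA2 clone. Both were in the least accessible class, and neither was called against the other clones (adjusted p = 0.9999 at each, edgeR). In the wild-type cells of the knockdown experiment with control knockdown, normalized apart, chr16:78582898 was at 2.24 and 2.96 CPM. In the same libraries chr16:78512272 was at 0.68 and 0.77 CPM. Whether DNA is missing from the clone in the stretches was not tested. Leaving the 22 regions of the stretches out, 211 lower and 108 higher calls remained.

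**Figure D4:**
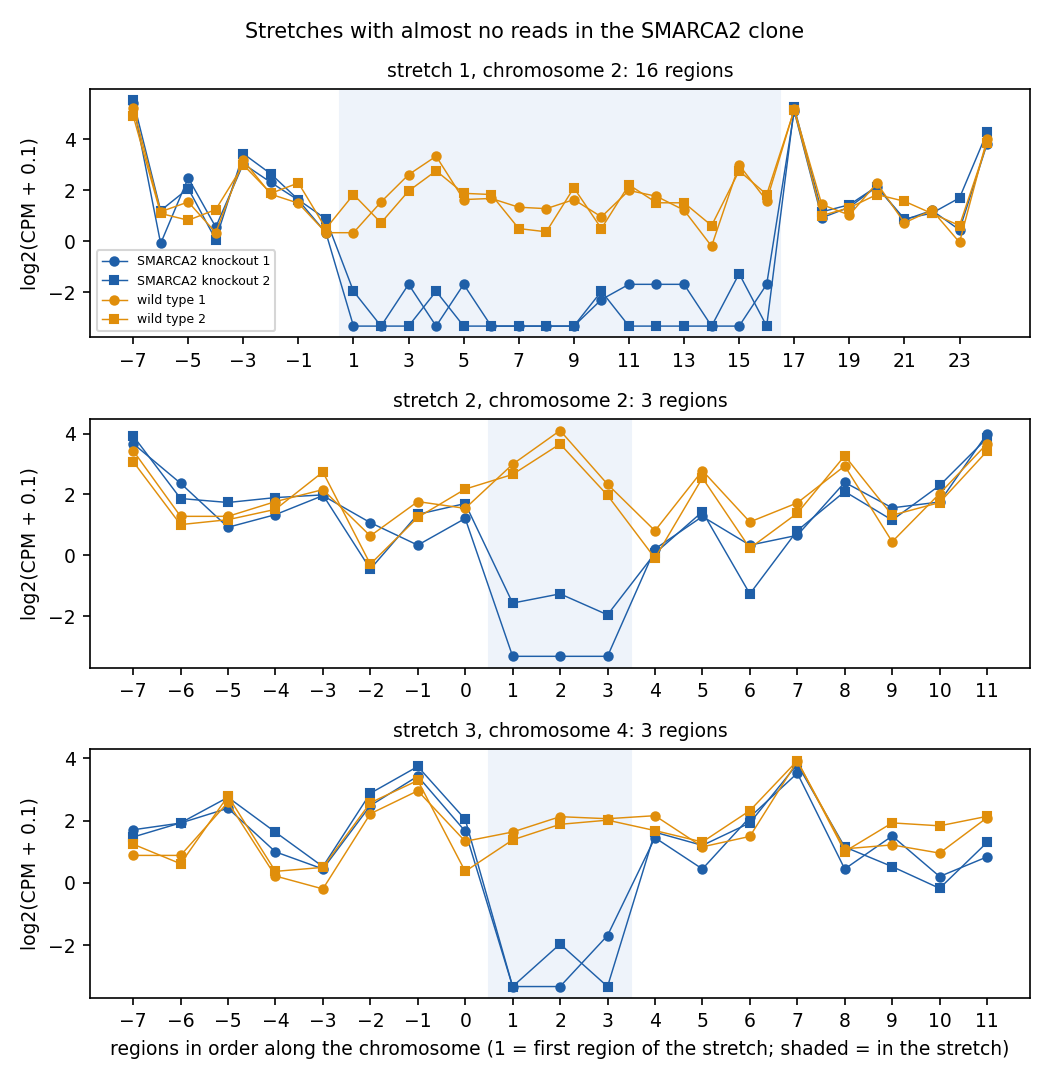
Accessibility, log2(CPM + 0.1), of the 4 libraries over the 3 stretches (shaded) and the 8 regions on each side, by order along the chromosome. Both SMARCA2 libraries (blue) fall to 0 to 4 counts a region inside each stretch and return to wild-type levels (orange) at the next region or within a few regions.

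Larger shifts were not seen. In 588 windows of 5 Mb with 20 or more regions, the median log2 fold change ran from -0.18 to 0.29, and 543 windows were within 0.1 of 0. No window passed 0.3, the limit used. Without 1 library at a time, 0 to 4 windows did: 3 when SMARCA2 replicate 2 was left out, 3 without the first wild-type library and 4 without the second.

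The other set 1 clones served as a second reference that does not use the wild-type libraries. Against the mean of the 22 other clones, the SMARCA2 clone was lower at 1007 regions (0.692%) and higher at 2987 (2.05%), so higher regions outnumbered lower ones under this reference. Without SMARCA2 replicate 1 the counts were 318 lower and 1258 higher, and without replicate 2 they were 177 and 382. Of the regions called against wild type, 175 of 233 lower and 87 of 108 higher regions were called in the same direction here. Both tests use the SMARCA2 libraries, so this is a description of those regions and not separate evidence. Called in this comparison as well as without each of the 4 libraries were 58 regions, 46 lower and 12 higher. Of the 46, 18 lay in the stretches and 28 elsewhere.

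The SMARCA2 clone was lower than each of the other 22 clones and wild type at 81 of the 233 lower regions (34.8%), against 2.89% of all regions tested. It was higher than all of them at 31 of the 108 higher regions (28.7%), against 2.32%. Wild type was the lowest of the 24 groups at 13 of the 108 higher regions (12.0%), against 2.37% of all regions tested, and the highest at 2 of the 233 lower regions (0.858%), against 1.78%. The choice of the regions fixes part of these shares. For this comparison a region was named if both SMARCA2 libraries lay beyond all 44 libraries of the other clones. The 3 most reduced of these were chr2:60621592, chr8:26724199 and chr15:33403037, all described above. The 3 most raised of these were chr2:80835188-80836071, chr4:167119228-167120773 and chr2:141618026-141618781. At chr2:80835188 the SMARCA2 libraries had 13.4 and 14.3 CPM, the other clones 0.78 to 8.56 CPM with a median of 2.00 CPM, and the wild-type libraries 6.31 and 6.57 CPM. The log2 fold change was 2.55 against the other clones and 1.10 against wild type, the latter not called (adjusted p = 0.0837, edgeR). At chr4:167119228 the SMARCA2 libraries had 30.5 and 37.4 CPM, the other clones at most 15.8 CPM and the wild-type libraries 11.2 and 12.3 CPM, with both comparisons called. At chr2:141618026 they had 9.18 and 9.85 CPM, the other clones at most 7.07 CPM and the wild-type libraries 3.49 and 5.62 CPM, and the comparison with wild type was not called (adjusted p = 0.161).

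The SMARCA2 clone was also compared directly with clones that lacked the other ATPase, SMARCA4. The SMARCA4 knockout was measured in 2 clones with 2 libraries each, and the contrast with the SMARCA2 clone does not use wild type. The SMARCA2 clone was lower at 14756 regions (10.1%) and higher at 22323 regions (15.3%). Without SMARCA2 replicate 2 these counts were 8356 and 14439. By the naming rule, with each SMARCA2 library on one side of the 4 SMARCA4 libraries, 3 regions are given in each direction. At chr11:55198484-55199439 the SMARCA2 libraries had 40.3 and 47.0 CPM, the wild-type libraries 48.0 and 30.8 CPM, and the 4 SMARCA4 libraries 1.91 to 3.22 CPM, a log2 fold change of 4.28 ± 0.20 (SE) between the knockouts. At chrX:141524404-141525151 the SMARCA2 libraries had 10.0 and 9.77 CPM and the SMARCA4 libraries 0.44 to 0.67 CPM. At chr10:65700147-65700787 they had 22.7 and 26.3 CPM and 0.89 to 2.11 CPM. In the other direction, chr1:97063749-97064425 had 2.85 and 1.42 CPM in the SMARCA2 libraries, 3.20 and 1.91 CPM in wild type and 28.4 to 37.5 CPM in the SMARCA4 libraries. At chr3:25197461-25198650 the SMARCA2 libraries had 1.58 and 2.36 CPM, wild type 3.78 and 4.30 CPM and the SMARCA4 libraries 23.2 to 38.2 CPM. At these 5 regions the SMARCA2 clone was not called against wild type. The largest difference in this direction was at chr2:60621592, at which the SMARCA2 libraries had 0 counts, the SMARCA4 libraries 2.67 to 4.41 CPM and wild type 6.02 and 7.65 CPM.

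At the regions called in the SMARCA2 knockout, the 2 knockouts differed at some and not at others. Of the 233 lower regions, 101 (43.3%) were lower in the SMARCA2 clone than in the SMARCA4 knockout, and 22 (9.44%) were higher. The rest were not called between the knockouts. Outside the stretches, 79 of 211 (37.4%) were lower and 22 (10.4%) higher. Of the 108 higher regions, 89 (82.4%) were higher than in the SMARCA4 knockout and 4 (3.70%) lower. Over all regions tested, 10.1% were lower and 15.3% higher in this comparison. In the most accessible class of all regions, 25.7% were lower and 22.3% higher. The regions were chosen with the same SMARCA2 libraries, so these counts are a description. Against the same wild-type libraries, which both comparisons share, the median log2 fold change of the SMARCA4 knockout was -1.03 over the 233 lower regions and -0.29 over the 108 higher regions. Over all regions tested it was 0.01. Among the named lower regions, the SMARCA4 clones were as low as the SMARCA2 clone at chr1:104733150 (0.89 and 1.00 CPM) and near wild type at chr15:33650368 (8.13 and 12.8 CPM).

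The knockdown experiment gave values for the same regions in libraries that took no part in choosing them. It has its own wild-type controls with a control knockdown, 16 libraries of 5355899 to 12432292 counts, and was normalized apart from the knockout table, so levels are compared within it. SMARCA4 knockdown in wild-type cells lowered 4.96% of 145617 regions tested and raised 0.773%. Of the 233 regions lower in the SMARCA2 knockout, it lowered 43 (18.5%) and raised 3 (1.29%), with a median log2 fold change of -0.51. Of the 108 regions higher in the SMARCA2 knockout, it lowered 22 (20.4%) and raised 0, with a median of -0.49. The median over all regions was 0.06. Called regions are more accessible than most, and of all regions above the median accessibility 7.90% were lowered, and of the most accessible class 8.22%, with a median of -0.05. Both lists thus had a median below 0 on SMARCA4 knockdown, including the one that was higher in the SMARCA2 knockout.

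The size of these shares rested on the number of libraries. Without 1 of the 4 knockdown or control libraries, 1.78% to 2.31% of all regions were called lower, and so were 7.73% to 12.0% of the lower list and 5.56% to 11.1% of the higher list. The medians stayed between -0.57 and -0.49 for the lower list and between -0.62 and -0.45 for the higher list. In the 2987 regions that were higher in the SMARCA2 clone than in the other clones, SMARCA4 knockdown lowered 1118 (37.4%) and raised 1, with a median of -0.98. The other clones of that comparison include the 2 SMARCA4 knockouts. In the 1007 regions that were lower than in the other clones, it lowered 69 (6.85%), and the median was -0.12.

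**Figure D5:**
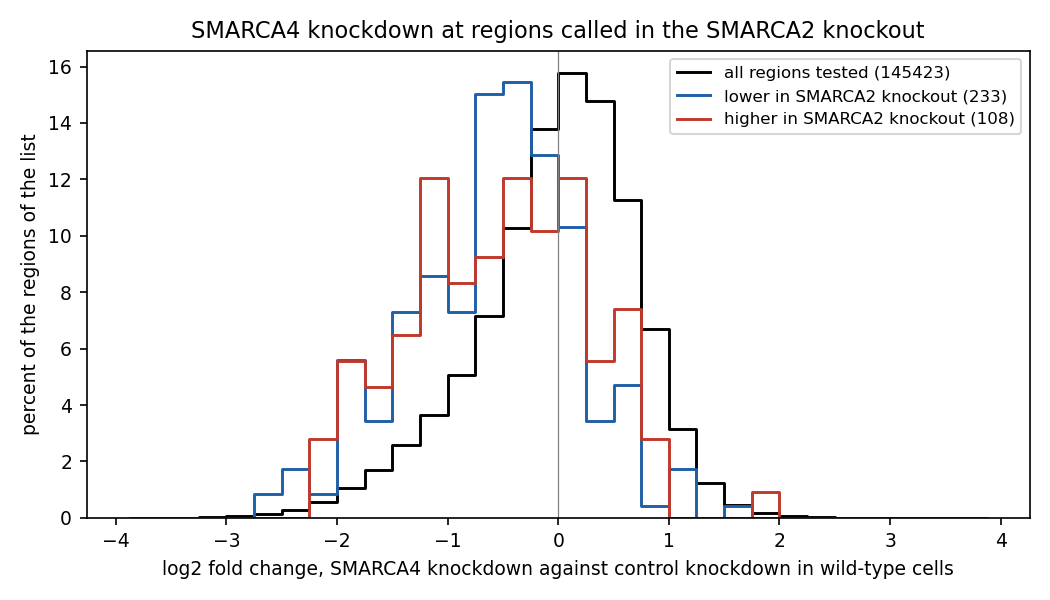
Distribution of the log2 fold change on SMARCA4 knockdown against control knockdown in wild-type cells, as the percent of each list in bins of 0.25. The regions lower (blue, 233) and higher (red, 108) in the SMARCA2 knockout have medians of -0.51 and -0.49, and all regions tested (black) a median of 0.06.

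Of the regions called in both experiments, those with the largest change in the SMARCA2 knockout were as follows. At chr2:60621592 the control libraries had 18.8 and 20.1 CPM and the SMARCA4 knockdown libraries 6.22 and 2.98 CPM. The log2 fold change was -2.04 ± 0.37 (SE), with an adjusted p of 1.19e-04 by edgeR. At chr5:58613024 they had 15.6 and 20.7 CPM against 8.51 and 6.45 CPM, a change of -1.26. At chr15:33403037 they had 6.63 and 8.23 CPM against 2.29 and 2.48 CPM, a change of -1.63. These 3 regions were called lower in the SMARCA2 knockout and on SMARCA4 knockdown. The next 3 were higher in the SMARCA2 knockout and lower on SMARCA4 knockdown. At chr4:190423943 the control libraries had 8.49 and 12.0 CPM and the knockdown libraries 1.86 and 3.14 CPM, a change of -2.06 ± 0.41 (SE; adjusted p = 3.83e-04, edgeR). At chr9:29806697-29807697, where the SMARCA2 libraries had 11.0 and 15.3 CPM and wild type 4.08 and 3.82 CPM, SMARCA4 knockdown took 18.6 and 19.3 CPM to 8.95 and 6.95 CPM. The control libraries at chr9:29806697 were thus above both SMARCA2 libraries. At chr1:57396593 the control libraries had 4.00 and 4.76 CPM, below set 1 wild type at 10.4 and 9.92 CPM. The 2 experiments were normalized apart, and the cause of these differences between wild-type cells was not tested. At chrX:142175981-142176565 the knockout experiment gave 7.07 and 5.91 CPM against 1.94 and 2.15 CPM. There SMARCA4 knockdown took 6.34 and 7.84 CPM to 1.75 and 1.65 CPM, with the controls again above set 1 wild type. This region was below the median accessibility, its adjusted p in the SMARCA2 knockout was 0.0422, and it was called in 0 of the 4 fits that left out 1 library.

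The same regions were followed in the other arms of that experiment, each but the last against the same control libraries. In SMARCA4 knockout cells with a control knockdown, 8.26% of all regions were lower than in wild-type cells and 1.49% higher. Of the most accessible class of all regions, 14.7% were lower. Of the 233 SMARCA2-lower regions 64 (27.5%) were lower there and 6 higher, and of the 108 SMARCA2-higher regions 40 (37.0%) were lower and 7 higher. In ARID2 knockout cells with a control knockdown, 0.374% of all regions were lower and 0.0446% higher. There 18 of the 233 regions (7.73%) were lower and 0 higher, and 4 of the 108 were lower and 3 higher. In the most accessible class 0.679% were lower in these cells. Knockdown of ARID2 in wild-type cells gave 0 calls over all regions, and the medians of the 2 lists were -0.03 and -0.10. Knockdown of SMARCA4 and ARID2 together lowered 4% of all regions and raised 0.618%. It lowered 35 of the 233 regions (15.0%) and raised 4, and lowered 15 of the 108 (13.9%) and raised 1. In the most accessible class it lowered 6.76%. In ARID2 knockout cells, SMARCA4 knockdown against the control knockdown of the same cells lowered 0.139% of all regions and raised 0.0556%. In the most accessible class it lowered 0.308%. Of the 233 it lowered 2 and of the 108 it lowered 0, and it raised 0 of either.

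In a further set of knockout libraries with its own wild type, loss of the core subunit SMARCC2 lowered 0.0584% of all regions and raised 0.0357%. It lowered 5 of the 233 regions and raised 1, and lowered 1 of the 108 and raised 3, with medians of -0.04 and -0.03. In the same set, ARID1B clone 5 was lower at 0.205% of all regions and higher at 0.0701%. It was lower at 18 of the 233 regions (7.73%) and higher at 2, and lower at 4 and higher at 4 of the 108. The clone of BCL7B, a small accessory subunit, was lower at 0.55% of all regions and higher at 0.192%. It was lower at 11 of the 233 regions (4.72%) and higher at 3, and lower at 8 (7.41%) and higher at 4 of the 108. In the most accessible class of all regions, 0.135% were lower in the SMARCC2 clone, 0.426% in ARID1B clone 5 and 1.41% in the BCL7B clone. These 3 clones share their wild-type libraries.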

How the data were processed

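The values analysed are the authors' deposited counts of reads in each accessible region, whole numbers with no scaling for depth. Per the submitters' processing notes, Bowtie2 2.2.4, Picard 1.118, MACS2 2.1.1.20160309 and hg19 were used, without a stated role. How regions were merged and reads counted is not given in the sources used here, nor the base from which starts count. A further deposited table holds the authors' normalized accessibility, taken as log2 values, and served as an alternative. Counts were tested in R 4.3.3 with edgeR 4.0.16 (quasi-likelihood, TMM, default filter, Benjamini-Hochberg over all regions, 2-sided), with 1 coefficient per clone or wild-type set over 56 libraries and 28 residual degrees of freedom. The knockdown fit had 16 libraries, 8 groups and 8 residual degrees of freedom. Alternatives used limma 3.58.1 and DESeq2 1.42.0. The fit was tested on simulated data. Wild-type replicates 3 and 4, and 2 table columns with no listed sample, were not analysed here.

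Named were called regions above the median accessibility, with no overlap of the 4 libraries and outside stretches, the first 12 in each direction by log2 fold change. For the comparisons with the other clones and with SMARCA4 the first 3 were named, with both SMARCA2 libraries beyond every library of the other group in place of wild type. Of regions also called on SMARCA4 knockdown the first 3 were named at any accessibility, and of each stretch the strongest region. The comparison, lists and rules were chosen with earlier results of these data known. Limits for 0 counts cover counting error only, since reads carry no molecular identifiers. The labels call the knockdown reagents by differing names, so only the word knockdown is used.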

Additional observations from a re-analysis of the deposited data

How the results depend on the processing

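The 24 named regions kept direction and call under each setting that kept all 4 libraries, and with 1 library left out 11 of their values missed the threshold and 0 changed direction. Against wild type, leaving out 1 library gave 111 to 185 calls, 83 to 149 lower and 27 to 62 higher. A test against a fold of 1.2 gave 213 (153 lower, 60 higher). Pooling both wild-type sets gave 1136 (804 and 332). The authors' normalized values gave 883 (444 and 439), and 899 (536 and 363) when centred. Fitting the 4 libraries alone gave 200 higher calls. Calls in each fit with 1 library left out and also against the other clones numbered 58 (46 and 12). RLE size factors (337), no filter (341), cyclic loess (385), set 1 alone (344) and DESeq2 (339) stayed within 1.5 times of 341. Against the other clones, leaving out 1 SMARCA2 library gave 559 to 1576 calls, 177 to 318 lower and 382 to 1258 higher. Against the SMARCA4 knockout it gave 22795 to 25501, 7597 to 8356 lower and 14439 to 17904 higher. Fewer libraries alone make these fits less precise; beyond that the cause was not tested. Requiring 5 regions in a row left 1 stretch, and leaving out 1 library gave 3 to 5 stretches and 0 to 4 shifted windows. Of the regions lower in the SMARCA2 knockout, the share lowered by SMARCA4 knockdown was 7.73% to 12.0% with 1 library left out, and 6.85% when chosen against the other clones. For the higher regions it was 5.56% to 11.1%, and 37.4% when chosen against the other clones.

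Replicate numbers 1 and 2 recur in each group, and the labels do not say what they share. The deviations of same-numbered SMARCA2 and wild-type libraries had a correlation of -0.05, and over 276 pairs of set 1 groups the correlations ran from -0.16 to 0.25, 32 of them over 0.1, so the numbers were not treated as pairs. With a replicate block the set 1 fit called 374 regions (255 lower, 119 higher) against 344 without it, and the 4-library fit 385 against 466. In the knockdown fit the block gave 63 and 32 lowered regions of the 2 lists, with 7.94% of all regions lowered. The settings chosen after seeing the data were the 4-library block, the 58 calls, the stretches with 1 library left out and the knockdown settings. The fit was less precise at the less accessible regions.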
